A study of Mus musculus with 18 samples.

Results

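The genes described here are those of antigen presentation by MHC class II: Cd74, H2-Aa, H2-Ab1, H2-Eb1, H2-DMa, H2-DMb1, Ciita and Ctss. They were chosen by gene symbol, and all 8 were found among the 13816 genes of the authors' deposited table. Bulk RNA sequencing covered sorted cells of mouse dorsal skin, in 6 groups of 3 samples each. DPCP EpSCs, DPCP Germ and DPCP Bulge were sorted at day 2 from skin treated with DPCP (diphenylcyclopropenone, a contact sensitizer that provokes allergic inflammation of the skin). Control EpSCs, Control Germ and Control Bulge were sorted at day 0 from control skin. The labels call all of the cells keratinocytes of the skin and the protocol calls them hair follicle stem cells; EpSCs is not spelled out. Stem cells of the hair follicle reside in its bulge, and the hair germ is the small cluster of cells beneath that. The sources used here do not give strain, sex or age of the mice, the surface markers of the sort, any treatment of control skin, or whether replicates were separate animals. Where replicates were not separate animals, p-values may reflect technical spread alone. All DPCP samples are from day 2 and all controls from day 0, so treatment and day cannot be told apart.

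Class II molecules show peptides from proteins taken up by a cell to CD4+ T cells. They are pairs of an alpha and a beta chain, which assemble with the invariant chain CD74; proteases of the endosome, cathepsin S among them, then degrade the invariant chain, and the H2-DM dimer exchanges its last fragment for a peptide. Dendritic cells, macrophages and B cells make class II all the time, whereas keratinocytes make it after interferon-gamma, which acts through IRF1 and other factors on the gene of the coactivator CIITA, and CIITA in turn acts on the conserved X and Y boxes of class II promoters.

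The class II chain genes lie close together in the MHC, with genes of class I presentation among them. By the GENCODE M21 annotation of GRCm38, H2-DMa lies at chr17:34119541-34139101, H2-DMb1 at chr17:34153072-34160230, H2-Ab1 at chr17:34257689-34269419 and H2-Eb1 at chr17:34305867-34316674, all on the plus strand. H2-Aa lies between them at chr17:34282744-34287823 on the minus strand. The other members lie elsewhere, Ctss at chr3:95526786-95556403 and Ciita at chr16:10480059-10528418, both on the plus strand, and Cd74 on a further chromosome. H2-Eb1 overlaps the antisense gene Gm20513, H2-DMa overlaps Brd2, and Ciita overlaps Dexi, each on the opposite strand. The libraries were stranded, but the sources used here do not say whether reads were counted by strand.

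Promoters of 5 of the 8 members (H2-Aa, H2-Eb1, H2-DMb1, H2-DMa and Ctss) were read from RefSeq (build GRCm38.p6), over the 250 bases before the start of the gene. Those of H2-Aa, H2-Eb1 and H2-DMb1 are shown because they hold both boxes; of these genes, H2-Aa and H2-DMb1 were called higher in EpSCs from DPCP skin and H2-Eb1 was not called. Capitals mark the letters CTNGNAACT of an X box and TGATTGG of a Y box. The stretch of H2-Aa is chr17:34287824-34287933 on the minus strand, that of H2-Eb1 is chr17:34305747-34305866 on the plus strand, and the 30 bases of H2-DMb1 round its X box are chr17:34153086-34153115 on the plus strand, which GENCODE M21 places within that gene.
H2-Aa: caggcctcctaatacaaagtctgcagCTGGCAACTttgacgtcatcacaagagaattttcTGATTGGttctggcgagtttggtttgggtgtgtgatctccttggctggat
H2-Eb1: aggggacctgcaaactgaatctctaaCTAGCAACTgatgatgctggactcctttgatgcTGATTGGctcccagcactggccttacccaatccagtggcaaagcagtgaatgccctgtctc
H2-DMb1: aggtttacCTAGTAACTgatgatgctaggc
Counted from the RefSeq start, the X box letters began 84 bases before H2-Aa, 94 before H2-Eb1 and 97 before H2-DMb1, and the Y box letters followed 34, 33 and 34 bases further on, in that order. On both strands, the X box letters were in 3.47% and the Y box letters in 7.23% of 32851 promoters, and both in this order, with starts at most 40 bases apart on the strand of the gene, in 5 promoters (0.0152%). The remaining promoters with both were those of BC051142 and 1700048F04Rik. The letters were chosen after the promoters of these class II genes had been read, so the match is a description. Neither set of letters was in the windows of H2-DMa and Ctss. The window of H2-DMb2, a close paralog of H2-DMb1, held the Y box letters without the X box letters. So did the windows of H2-Oa, H2-Ob and H2-Eb2, whose expression was not analysed here. GENCODE M21 places the windows of H2-DMa and H2-DMb2 within those genes, so the stretches before its own starts of both were not searched.

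In EpSCs, RNA of the invariant chain and of the chains of the H2-A molecule was higher in DPCP than in control skin, while the coactivator gene Ciita was not called. 4 of the 8 class II genes rose in EpSCs and 0 fell, in limma's test with Benjamini-Hochberg adjustment at an adjusted p under 0.05. Of all genes tested, 39.9% were called in EpSCs, 19.9% higher and 20.0% lower. The median log2 fold change, DPCP over control, was 0.85 over the 8 genes and -0.0034 over all genes. Library columns of the authors' deposited table carry codes that match no sample label, so no level per sample, SD or depth is given here, and whether a fold change rests on low expression is unknown. The approximate 95% intervals below were rebuilt from each deposited fold change and p-value. In sorted bulk RNA, more cells of a type and more RNA per cell cannot be told apart.

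Cd74, the invariant chain that guides class II molecules to the endosome, had a log2 fold change of 1.92 in EpSCs in the authors' deposited table (3.79-fold, approximate 95% interval 1.10 to 2.74, limma adjusted p = 0.000147). H2-Ab1, the beta chain of H2-A, had 1.78 in the same deposited table of the authors (3.43-fold, interval 0.94 to 2.61, limma adjusted p = 0.00047). H2-Aa, its alpha chain, had 1.71 in the authors' deposited table (3.28-fold, interval 0.61 to 2.81, limma adjusted p = 0.00958). The increases of these 3 genes were of similar size and lay above those of 94.6%, 94.0% and 93.6% of all genes, in the order given. H2-Eb1, the beta chain of H2-E, had 0.76 in the authors' deposited table (1.69-fold, interval 0.11 to 1.40) and missed the threshold, at a limma adjusted p = 0.0528.

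**Figure D1:**
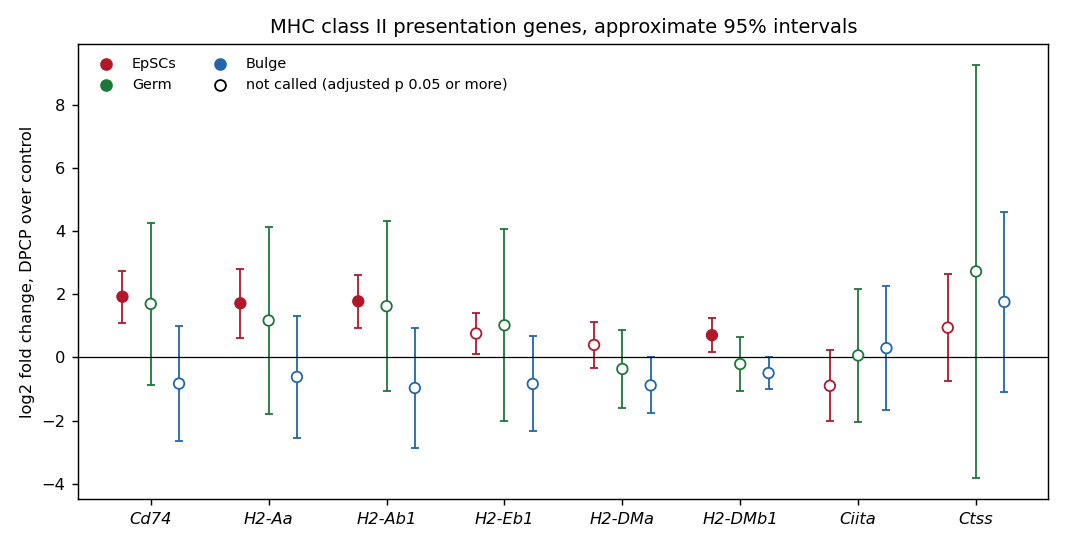
Log2 fold change, DPCP over control (vertical axis), of the 8 class II genes in EpSCs, Germ and Bulge, as points with approximate 95% intervals as bars; filled points were called at an adjusted p under 0.05. The 4 filled points are Cd74, H2-Aa, H2-Ab1 and H2-DMb1 in EpSCs, and the widest interval is that of Ctss in Germ.

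Genes of the peptide exchange step had values of either sign in EpSCs. H2-DMb1, the beta chain of H2-DM, rose by 0.70 in EpSCs in the authors' deposited table (1.63-fold, interval 0.15 to 1.25, limma adjusted p = 0.0334), and H2-DMa, its partner chain, stood at 0.39 there (interval -0.34 to 1.13, adjusted p = 0.404). H2-DMb2, which encodes another H2-DM beta chain and is no member of the list, fell by 2.01 in EpSCs in the authors' deposited table (4.04-fold lower, adjusted p = 0.0129). H2-DMb1 and H2-DMb2 are adjacent and alike in sequence, so their counts are uncertain where reads fit both. Ctss, the protease that degrades the invariant chain in dendritic cells and macrophages, stood at 0.94 in EpSCs in the authors' deposited table (interval -0.76 to 2.64, adjusted p = 0.387).

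Ciita, the coactivator of class II promoters, was not called. Its log2 fold change in EpSCs was -0.90 in the authors' deposited table (interval -2.02 to 0.22, limma adjusted p = 0.195), above that of 19.0% of all genes. It was the only member of the 8 with a negative value in EpSCs, and its interval includes 0.

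In Germ, 0 of the 8 class II genes were called by limma, where 1.06% of all genes were called (0.847% higher and 0.21% lower), and 0 had an unadjusted p under 0.05, where 25.7% of all genes did. The chain genes nevertheless had values near those of EpSCs. Cd74 stood at 1.69 (interval -0.87 to 4.26), H2-Ab1 at 1.62 (-1.07 to 4.31), H2-Aa at 1.17 (-1.78 to 4.12) and H2-Eb1 at 1.02 (-2.03 to 4.06) in the authors' deposited table. H2-DMa at -0.37, H2-DMb1 at -0.21 and Ciita at 0.06 lay closer to 0 there. Ctss had the largest value of the list, 2.72 in the authors' deposited table, with the widest interval, -3.83 to 9.27. The intervals of these 4 chain genes and of Ctss hold both a loss and a several-fold gain, so a change of that size was not detectable in Germ at this precision. Those of H2-DMb1 (-1.06 to 0.64) and H2-DMa (-1.61 to 0.87) were narrower and leave room for smaller gains.

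In Bulge, 0 of the 8 genes were called by limma, where 10.3% of all genes were (5.12% higher and 5.16% lower), and 1 had an unadjusted p under 0.05, where 29.2% of all genes did. All 4 genes of the invariant chain and the H2-A and H2-E chains had negative values in the authors' deposited table, H2-Ab1 -0.97 (interval -2.87 to 0.93), H2-Eb1 -0.84 (-2.35 to 0.66), Cd74 -0.83 (-2.65 to 0.99) and H2-Aa -0.62 (-2.55 to 1.31). H2-DMa, at -0.89 in the authors' deposited table (interval -1.77 to -0.0014, unadjusted p = 0.0496, limma adjusted p = 0.171), was the gene with the unadjusted p under 0.05, and H2-DMb1 stood at -0.50 there (adjusted p = 0.173). Ctss at 1.76 (-1.09 to 4.60) and Ciita at 0.29 (-1.67 to 2.25) had positive values in that table. The median over the 8 genes was -0.73, against -0.02 over all genes.

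Differences of the DPCP effect between populations were tested with standard errors rebuilt from the deposited values, p being adjusted over all genes. For EpSCs minus Bulge, 1 of the 8 genes differed, where 10.4% of all genes did. It was H2-DMb1, with 0.70 in EpSCs and -0.50 in Bulge (difference 1.20, interval 0.46 to 1.94, adjusted p = 0.0244). The differences of Cd74 (2.75, interval 0.75 to 4.75) and H2-Ab1 (2.75, interval 0.67 to 4.82) were larger and less precise, and missed the threshold at adjusted p = 0.06 and 0.0717. For EpSCs minus Germ, 0 of the 8 genes differed, where 12.2% of all genes did, and 0 had an unadjusted p under 0.05. Cd74 differed by 0.23 there, with an interval from -2.46 to 2.92, which leaves room for a difference of either sign. For Germ minus Bulge, 0 of the 8 differed, where 5.99% of all genes did, and again 0 had an unadjusted p under 0.05. This approximate test was too lenient in simulated data, so adjusted p-values near the threshold are to be read with that error.

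The class II region was then read in chromosomal order. From H2-DMa to H2-Ea-ps (chr17:34119541-34344645, 225.1 kb) the annotation lists 19 genes, of which 10 were analysed here. Of these, 5 rose and 1 (H2-DMb2) fell in EpSCs, where 19.9% and 20.0% of all genes did. In Germ and Bulge 0 were called by limma, with 3 genes at an unadjusted p under 0.05 in each, where 25.7% and 29.2% of all genes were. In Germ these were Tap1 (-0.64), Psmb8 (-0.72) and Psmb9 (-0.79) in the authors' deposited table, all negative. In Bulge they were H2-DMa (-0.89) and Psmb9 (-0.85), both negative, and Tap2 (0.56), which was positive. Besides H2-DMb1, H2-Aa and H2-Ab1, the genes that rose in EpSCs in the authors' deposited table were Tap2 (1.40, adjusted p = 0.000895) and Tap1 (0.50, adjusted p = 0.0213), the subunits of the peptide transporter that serves class I. The immunoproteasome genes beside them, Psmb9 at 0.14 and Psmb8 at 0.12 in EpSCs in the authors' deposited table, were not called.

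**Figure D2:**
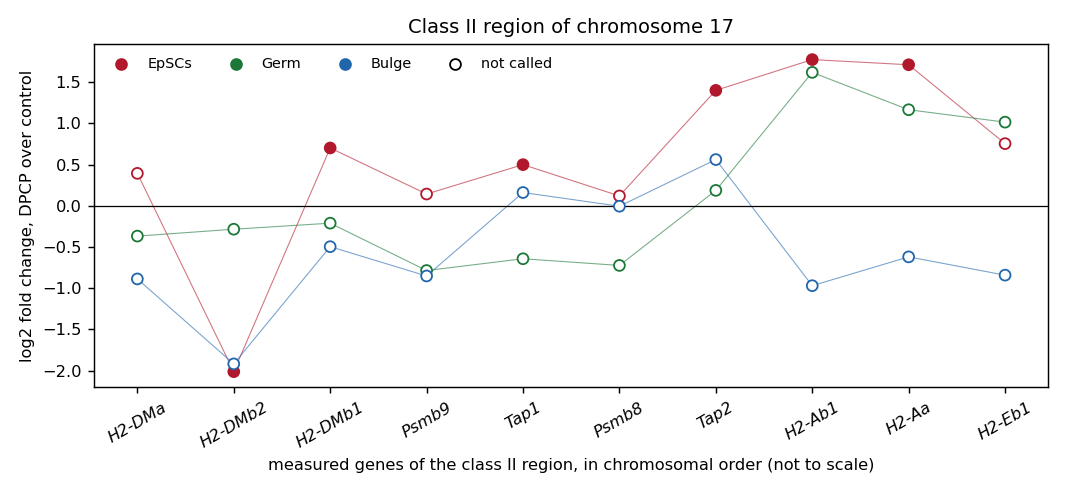
Log2 fold change, DPCP over control (vertical axis), of the 10 genes of the class II region that were analysed, in chromosomal order along the horizontal axis; lines join the genes of a population and filled points were called. In EpSCs the values run from -2.01 at H2-DMb2 to 1.78 at H2-Ab1, and the H2-A and H2-E genes at the right end are positive in EpSCs and Germ and negative in Bulge.

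Genes that act before class II, from the interferon-gamma receptor to CIITA, had mostly positive values in all 3 populations. Of 7 such genes reported here, 4 rose and 1 fell in EpSCs, where 19.9% and 20.0% of all genes did. Positive values were held by 5 of the 7 in EpSCs (median 0.59), 7 in Germ (median 0.55) and 7 in Bulge (median 0.295). Among all 13816 genes, 6890, 7605 and 6765 had positive values, in that order. Socs1, also counted in the 7, stood at -0.36, 0.63 and 0.075 in the same order and was not called. In EpSCs the receptor chain gene Ifngr2 rose 2.01-fold (adjusted p = 0.000471) and Irf1, which acts on the Ciita promoter, by 0.82 (adjusted p = 0.0314). The receptor kinase genes Jak2 and Jak1 rose by 0.64 and 0.59 in EpSCs in the authors' deposited table. Ifngr1, the chain that binds the ligand, fell by 0.80 there (adjusted p = 0.00193). In Germ and Bulge, 0 of the 7 were called by limma, with 0 at an unadjusted p under 0.05 in either, and the authors' deposited table had Irf1 at 0.55 in Germ (adjusted p = 0.372) and at 0.29 in Bulge (adjusted p = 0.565). Of 7 genes for the factors that sit on the class II promoter, 1 rose in EpSCs, namely Creb1, which the authors' deposited table gives at 0.69 (adjusted p = 0.00567). Rfx5, the X box protein, stood above 0 in all 3 populations in that table (0.44 in EpSCs, 1.001 in Germ and 0.45 in Bulge) and was called in none of them, with adjusted p = 0.224, 0.238 and 0.338 in that order.

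Most proteases and traffic genes of the class II pathway were higher in EpSCs. Of 12, 8 rose and 0 fell in EpSCs, with a median of 0.76, where 19.9% of all genes rose and 20.0% fell. The aspartic protease gene Ctsd rose by 2.88, and Ctsz by 1.33, the legumain gene Lgmn by 0.92, Ctsb by 0.90, Ctsl by 0.71 and Ctsh by 0.66 in the authors' deposited table. Sppl2a, which removes the last membrane stub of the invariant chain, rose by 0.81, and Marchf8, a ubiquitin ligase that takes class II from the cell surface, by 0.90 in the authors' deposited table. Germ had 1 of the 12 higher, Lgmn (2.35, adjusted p = 0.0439 in the authors' deposited table). Bulge had Ctsl (2.55) and Ctsd (1.99) higher and Ctsz (-1.12, adjusted p = 0.0285) lower in the authors' deposited table. The rebuilt test called a difference for Ctsz in EpSCs minus Bulge (2.45, interval 1.26 to 3.63, adjusted p = 0.00254) and in Germ minus Bulge (2.78, interval 1.45 to 4.12, adjusted p = 0.00542). It was the only gene of the 12 called in either difference, where 10.4% and 5.99% of all genes were called.

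**Figure D3:**
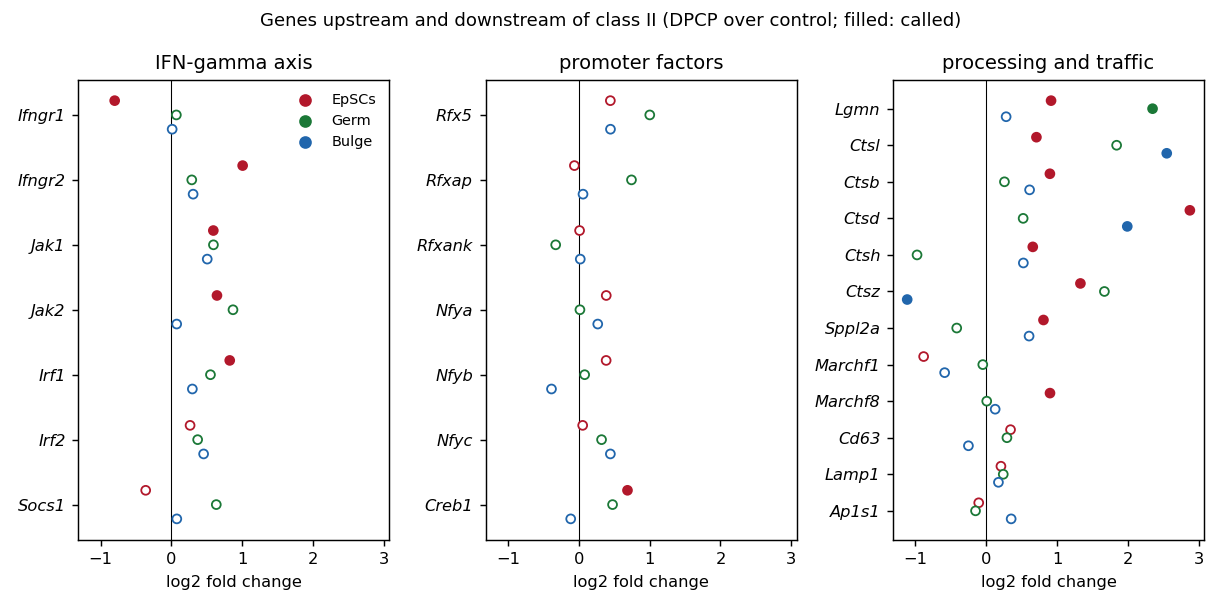
Log2 fold change, DPCP over control (horizontal axis), of genes of the interferon-gamma axis, of promoter factors and of class II processing and traffic, in EpSCs, Germ and Bulge; filled points were called. In EpSCs 4 of 7 axis genes, 1 of 7 promoter factor genes and 8 of 12 processing genes were called higher, with Ctsd at 2.88 the largest.

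Costimulation genes, whose products accompany class II on antigen-presenting cells, had mixed values. Of 7 analysed, 1 rose and 2 fell in EpSCs, with a median of -0.93, where 19.9% of all genes rose and 20.0% fell. Icosl, the ligand of ICOS, rose by 3.50 in EpSCs and by 3.30 in Bulge (adjusted p = 0.000257 and 0.017) in the authors' deposited table. Cd83, a surface protein of mature dendritic cells that stabilizes class II, fell by 2.54 and the adhesion gene Icam1 by 0.93 in EpSCs in that deposited table of the authors. In Germ 0 of the 7 were called by limma and 1 had an unadjusted p under 0.05.

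Because some leukocytes (dendritic cells, macrophages and B cells) make class II all the time, markers of other cells were set beside these values. In EpSCs, 0 of 12 leukocyte markers rose and 2 fell (median -0.54), namely Ptprc, which encodes CD45 (-3.64 in the authors' deposited table, adjusted p = 0.00176), and Ptpn6 (-0.48, adjusted p = 0.0235). Positive values were held by 4 of the 12 in the authors' deposited table, Cd48 (2.04), Rac2 (1.55), Cd53 (1.36) and Coro1a (0.49), with adjusted p = 0.129, 0.265, 0.353 and 0.375 in that order. Of all genes, 19.9% were called higher and 20.0% lower in EpSCs, the shares to set beside the counts of called markers here. Of 8 macrophage markers 0 rose and 2 fell in EpSCs, Adgre1 (-3.85) and Csf1r (-2.36) in the authors' deposited table, and the median was -0.22. The other macrophage markers were not all low: 4 of the 8 had positive values in the authors' deposited table, C1qb (1.70), Cd68 (1.67), Itgam (1.62) and Cd14 (0.98), with adjusted p = 0.214, 0.0677, 0.0569 and 0.0619 in that order. Cd207, the langerin gene of Langerhans cells, stood at -0.88 (adjusted p = 0.187) there. Of 6 Langerhans and dendritic cell markers 2 rose in EpSCs, Epcam (2.38) and Mfge8 (2.06) in the authors' deposited table, and keratinocytes express Epcam too. Irf8 had a positive value there without a call (1.83, adjusted p = 0.0873), so 3 of the 6 were positive. The T cell list had 0 of 5 higher and 1 lower (Thy1, -2.05 in the authors' deposited table). The keratinocyte list had 6 of 8 lower and 1 higher, with a median of -1.22. Those lower in the authors' deposited table were Itgb4 (-1.94), Krt5 (-1.89), Col17a1 (-1.72), Krt15 (-1.71), Itga6 (-0.72) and Trp63 (-0.59), and Cdh1, which encodes E-cadherin, was higher (1.05). Melanocyte markers had positive values in 8 of 8 in EpSCs (median 2.22), and 2 were called higher in the authors' deposited table, Kit (2.15, adjusted p = 0.0157) and Mitf (1.26, adjusted p = 0.0186). Endothelial markers were positive in 6 of 6 in EpSCs (median 1.02), with 0 called by limma and 2 at an unadjusted p under 0.05. Such a p was held by 6760 of all 13816 genes in EpSCs. The levels of these markers are not given here, and their part in the class II values was not tested.

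In Germ the same leukocyte and macrophage lists had medians of 2.11 and 2.06, above the 1.09 of the class II genes, and 0 of their 20 genes were called by limma or had an unadjusted p under 0.05. Langerhans and dendritic cell markers had a median of 1.88 in Germ, with 5 of 6 positive and 0 called by limma. An unadjusted p under 0.05 was held by 3 of the 6, where 25.7% of all genes had one. These were Irf8 (3.55), Zbtb46 (3.30) and Mfge8 (2.70) in the authors' deposited table. Markers of melanocytes (6 of 8 higher, median 6.08) and of endothelial cells (2 of 6 higher, median 4.37) also stood high in Germ. Fibroblast markers were positive in 4 of 4 in Germ (median 3.48), with 0 called by limma and 3 at an unadjusted p under 0.05. These 3 were Dcn (4.77), Col3a1 (3.65) and Pdgfra (3.30) in the authors' deposited table. The melanocyte genes called there in the authors' deposited table were Tyr (8.50), Tyrp1 (7.57), Dct (6.45), Sox10 (6.26), Pmel (5.28) and Mlana (5.01), and the endothelial genes were Kdr (5.21) and Tie1 (4.67). In Bulge the leukocyte and macrophage medians were 1.17 and 1.44, with 0 called and 3 of 12 and 3 of 8 at an unadjusted p under 0.05, where the class II median was -0.73. The Langerhans and dendritic cell median was 0.22 in Bulge, with 0 called and 3 of 6 at an unadjusted p under 0.05. Of all genes in Bulge, 29.2% had such a p. Melanocyte markers were negative in 8 of 8 in Bulge (median -1.13), and 1 was called lower, Dct (-2.21 in the authors' deposited table, adjusted p = 0.0367). The part of these markers in the Germ and Bulge values was not tested either.

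**Figure D4:**
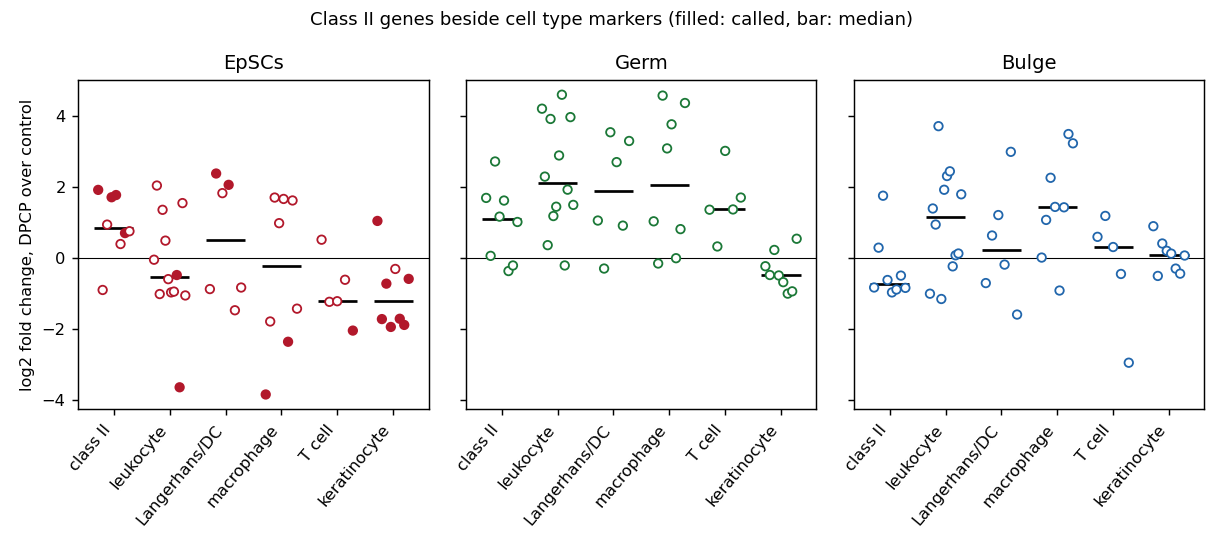
Log2 fold change, DPCP over control (vertical axis), of the class II genes and of markers of leukocytes, Langerhans and dendritic cells, macrophages, T cells and keratinocytes, 1 panel per population; each point is a gene, bars are medians and filled points were called. The class II median lies above the leukocyte median in EpSCs (0.85 and -0.54) and below it in Germ (1.09 and 2.11) and Bulge (-0.73 and 1.17).

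The genes whose 3 fold changes lay nearest to the median of Cd74, H2-Aa, H2-Ab1 and H2-Eb1 (1.74 in EpSCs, 1.39 in Germ and -0.84 in Bulge) were sought by Euclidean distance over the 3 comparisons. They were Klhl22 (distance 0.24), Lgals4 (0.25), Cers4 (0.39), 2810429I04Rik (0.40) and Klf1 (0.46). Of these, Lgals4 (1.57) and Cers4 (1.76) were called higher in EpSCs in the authors' deposited table, and the smallest adjusted p of the 5 in Germ or Bulge was 0.056, for Klhl22 in Bulge. Cd74, H2-Aa and H2-Ab1 lay 0.35, 0.32 and 0.26 from that median and H2-Eb1 1.06, with 140 other genes nearer than H2-Eb1.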

How the data were processed

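RNA was measured by sequencing in 18 samples, 6 groups of 3, grouped by sample title. Builds GRCm38 and mm10 and the tools STAR 2.7.6a (an aligner), limma 3.60.6, cutadapt 3.5 and FastQC 0.11.9 are named per the submitters' processing notes. The sources used here do not give the read counter, the gene annotation, the filter on low values, the normalization or the model. The authors deposited, per comparison and for 13816 genes, a log2 fold change (read as DPCP over control from the file header). Each fold change comes with limma's p-value from the authors and its adjusted value, equal to a Benjamini-Hochberg adjustment over all genes. A further 36 columns hold values per library under codes that match no sample label; they were not used, so depth is unknown and no fit of samples was run. A gene was called at an adjusted p under 0.05.

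Dividing a fold change by the normal score of its p gave an approximate standard error, and from it approximate 95% intervals and a test of differences between populations (scipy 1.17.1), adjusted over all genes. The test of differences assumes that the fold changes compared are independent of each other. That may not hold where populations were sorted from the same animals, which is unknown here. Tested on simulated data (limma 3.58.1), the false share of the difference test exceeded the threshold. Of the IDs, 13799 matched GENCODE M21 apart from the version.

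Members and lists were chosen with earlier results of these data known. The text names all 8 members, the listed genes called in any comparison, up to 4 others per list, the 5 nearest genes, and, outside this rule, genes of the class II region. Genes of a list that the text does not count were not analysed here, B cell markers among them (0 of 5 analysed); of 4 fibroblast markers 0 rose and 2 fell in EpSCs (Col1a2 and Col3a1, by 3.03 and 3.38 on the log2 scale in the authors' deposited table) and 0 were called by limma in Germ or Bulge, with 3 and 0 at an unadjusted p under 0.05. 1 gene of the interferon-gamma list is not reported here.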

Additional observations from a re-analysis of the deposited data

Results flagged for a closer look

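For H2-DMb1 the DPCP effect differed between EpSCs and Bulge by the approximate test of the difference itself, at 1.20 on the log2 scale (0.70 in EpSCs and -0.50 in Bulge, adjusted p = 0.0244). That test was too lenient in simulated data, and counts of H2-DMb1 are uncertain where reads also fit H2-DMb2. H2-DMb1 was 1 of the 8 class II genes, where 10.4% of all genes differed, and its adjusted p was 0.246 with Benjamini-Yekutieli adjustment. Of the 12 genes of class II processing and traffic, the same test called 1 in EpSCs minus Bulge, 1 in Germ minus Bulge and 3 in EpSCs minus Germ, where it called 10.4%, 5.99% and 12.2% of all genes. Ctsz differed by 2.45 in EpSCs minus Bulge and by 2.78 in Germ minus Bulge. In EpSCs minus Germ, Ctsd differed by 2.35 (2.88 in EpSCs and 0.52 in Germ), Ctsh by 1.63 (0.66 in EpSCs and -0.98 in Germ) and Sppl2a by 1.22 (0.81 in EpSCs and -0.42 in Germ), with adjusted p = 0.00156, 0.0115 and 0.0115.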

How the results depend on the processing

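No paired analysis was possible because no library column could be tied to a sample label; for the same reason the planned fits on library values, the other pseudocount, the filter and leaving out replicates were not run. The 4 class II genes called in EpSCs were 2 with Benjamini-Yekutieli adjustment (Cd74 and H2-Ab1, out of 2590 genes called in all, against 5516). They were 5 at an adjusted p under 0.10 (H2-Eb1 added, out of 6712 genes called in all). At 0.01 they were 3 (out of 3313), and with a log2 fold change of at least 1 also 3 (out of 3073). H2-Aa had an adjusted p of 0.0969 and H2-DMb1 of 0.338 with Benjamini-Yekutieli adjustment. The count in Germ and in Bulge was 0 under these 4 alternatives. At an adjusted p under 0.10, 923 of all genes were called in Germ and 2689 in Bulge. The 1 gene differing in EpSCs minus Bulge, out of 1433 genes called in all, was 3 at an adjusted p under 0.10 (Cd74, H2-Ab1 and H2-DMb1, out of 2314). The count was 0 with Benjamini-Yekutieli adjustment (out of 411). It was 1, out of 2761, when a t distribution with 4 degrees of freedom replaced the normal score. That setting called more genes than the normal score did, so it is no stricter check of H2-DMb1. The other differences between populations kept a count of 0 under those alternatives. Without values per library, whether 1 library decides a value was not tested.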
